A study of Arabidopsis thaliana with 8 samples.

Results

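The probes of plates TC17 to TC30 form a separate block of names on a tiling array for chromosome 4 of Arabidopsis thaliana, and their ratios for dimethylated histone H3 (H3K4me2) were far below those of the typical probe. Members were chosen by name alone: TC, a plate number from 17 to 30, a row letter from A to H and a well number. Of 1133 such names, 1102 had a value in every column and were members, out of 21295 probes with values on the whole array. They came from 13 plates, because no probe is named for plate TC26. The block is set apart from the last of the preceding TC plates, TC13, since no probe is named for plates TC14 to TC16 either. The names carry no gene, sequence or coordinate here, and 0 of the 1102 occur in the RefSeq gene table for the species, so the results below are by plate and well and no sequence is shown.

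The measurement was chromatin immunoprecipitation read on an array (ChIP-chip): DNA recovered with an antibody against H3K4me2 (IP) was hybridised against input DNA of the same replicate. All 8 arrays came from 1 group, untreated seedlings aged 10 days, grown in liquid medium and named ColxC24 in the source labels. That name was read as a hybrid of the accessions Col-0 and C24, although the strain field gives only C24, and which parent was the mother is not stated. Every array has Cy5 tagged as input DNA, yet the source names call the Cy5 channel IP on 4 of the 8, and the source names were followed. The labels number 4 replicates, I to IV, each hybridised on a pair of arrays with the dyes exchanged. The deposited columns of each pair differed at 0 probes, so each pair was counted as 1 replicate and n = 4. The labels do not say whether separate plants were used for the replicates, so the p-values rest on differences among these 4 samples alone, and those may be technical.

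H3K4me2 is carried by nucleosomes of genes in open chromatin. In Arabidopsis it is found over genes, many of them weakly transcribed, and it is scarce in heterochromatin, the compact, repeat-rich chromatin around centromeres and in the knob of chromosome 4, where methylated H3 lysine 9 and DNA methylation prevail. A seedling holds many cell types, so a smaller share of cells with the mark and less of the mark per cell cannot be told apart.

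Each ratio is given relative to the median of all 21295 probes in its replicate, on a scale taken as log2. No source used here gives the log base or the direction of the deposited ratio. "Above" and "below" follow the sign as deposited, and would change places if the ratio were input over IP. Before centring, replicates I to IV had column medians of -0.69, -0.23, -0.76 and -0.33.

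The TC17 to TC30 probes were low in every replicate. Their medians in replicates I to IV were -2.28, -1.99, -2.26 and -2.03, which average -2.14 ± 0.15 (SD, n = 4). Replicates I and III gave the lower medians and II and IV the higher ones, with no overlap. Placed among all probes of the array by rank, which does not depend on where 0 is set, the median member stood at the 10.7th percentile ± 0.37 (SD, n = 4), and 86.0% ± 1.17 of the members fell in the lowest 25% of the array. With the sign turned these would be the 89.3rd percentile and 86.1% in the highest 25%. A ratio under -1 was found for 86.3% ± 1.55 of them and a ratio above 0 for 4.70% ± 0.50. The spread over members, an SD of 0.98 on average within a replicate, was several times the spread of a single member between replicates, whose SD had a median of 0.21.

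The test of each probe against the median probe (limma, two-sided, Benjamini-Hochberg adjustment over all 21295 probes) placed 1026 of the 1102 members below at an adjusted p under 0.05, or 93.1%, where 42.3% of all probes were called below. It placed 32 members above, 2.90%, against 42.1% of all probes. Of the members called, 1025 and 31 had the same sign in all 4 replicates. Asked for a shift of more than 0.5 with limma's treat, 994 members, 90.2%, lay below against 30.6% of all probes, and 14 members, 1.27%, lay above against 28.1%. The other 94 members passed in neither direction. At a distance over 1, 890 members were below, 80.8% against 20.3% of all probes, and 3 were above, 0.272% against 12.8%. The test takes the 4 replicates as independent. With replicate I joined to III and II joined to IV in random blocks, 977 members lay below by more than 0.5 and 10 above.

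**Figure D1:**
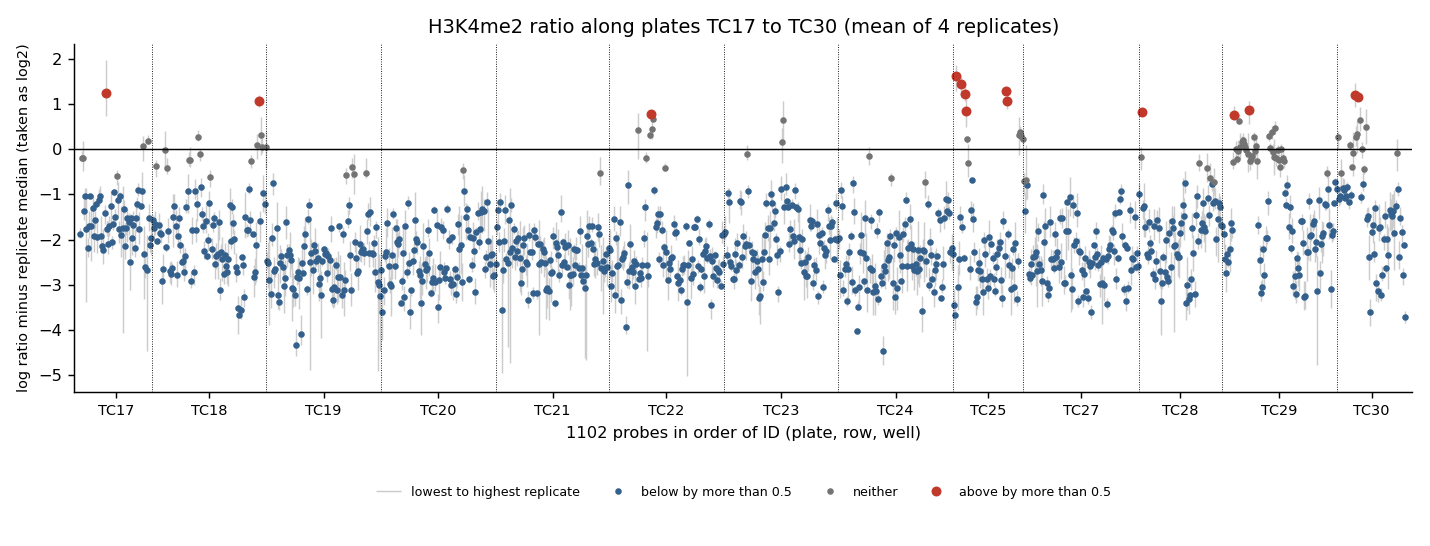
Mean ratio of each of the 1102 probes in order of name, with plates separated by dotted lines; the vertical axis is the log ratio minus the replicate median, taken as log2, and grey lines span the lowest to the highest of 4 replicates. Most probes lie between -1 and -3.5, the probes above by more than 0.5 lie on 7 plates, and plate TC29 holds stretches of probes close to 0.

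The low level was shared by all plates but its depth varied along the series. All 13 plates had a median under -1 in each of the 4 replicates. The deepest were TC19, at -2.46 ± 0.13 (SD over the 4 replicate medians), TC20 at -2.44 ± 0.22, TC22 at -2.42 ± 0.09, TC24 at -2.41 ± 0.25 and TC27 at -2.38 ± 0.14. That SD includes shifts between replicates that the plates share, so it does not measure the error of a difference between plates. Within replicates, TC19 was under TC22 and TC27 each time, but not under TC20 or TC24 each time. TC25 at -2.31 ± 0.15 and TC21 at -2.28 ± 0.15 were close behind, followed by TC23 at -2.06 ± 0.09 and TC18 at -1.87 ± 0.08. The highest medians were at the outer plates of the series. TC17, the first, had -1.56 ± 0.21, and the last 3 plates had -1.77 ± 0.27 (TC28), -1.40 ± 0.14 (TC29) and -1.29 ± 0.22 (TC30). Within replicates, TC30 was under TC29 in I and above it in II, III and IV. On TC30 the replicate medians were -1.60, -1.20, -1.28 and -1.10 for I to IV, and on TC19 they were -2.52, -2.33, -2.61 and -2.38. The median of TC30 was therefore the higher in every replicate. The probes of these plates overlapped, with means from -3.72 to 1.19 on TC30 and from -4.33 to -0.39 on TC19.

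**Figure D2:**
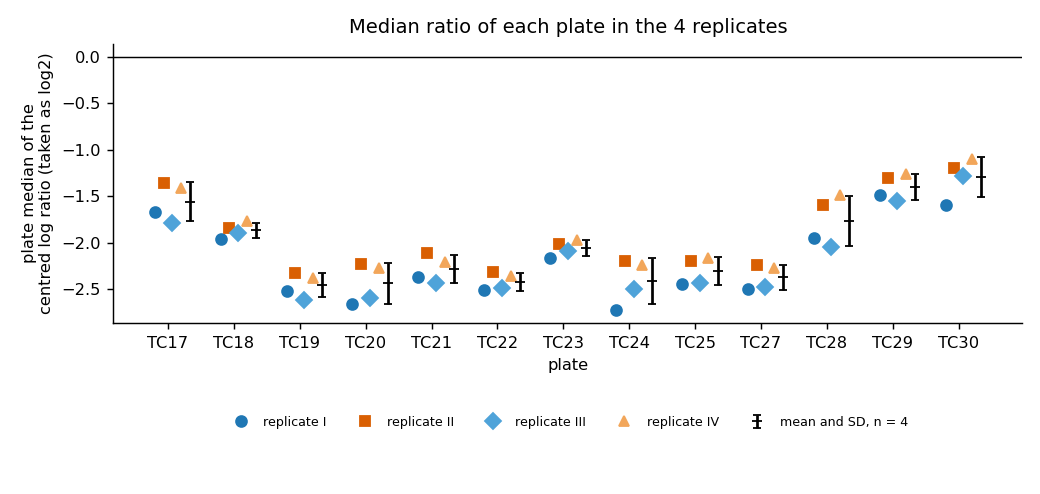
Median centred log ratio (taken as log2) of each plate, with 1 symbol for each of replicates I to IV and a black bar for the mean and SD of the 4. All medians lie under -1, the middle plates lie near -2.4, and the symbols of II and IV stand above those of I and III on each of the 13 plates.

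The members that were not low were gathered on few plates. Of the 108 members not called below by more than 0.5, 75 (69.4%) lay on plates TC29, TC18, TC30 and TC25, which hold 306 (27.8%) of the members. On plates TC19, TC20, TC21, TC23, TC24 and TC27 together, 558 of 572 members (97.6%) were below by more than 0.5. The lowest share below was that of TC29, with 61 of 96, and the highest that of TC20, with 95 of 96. By position within a plate, the medians of rows A to H ran from -2.44 in row C to -2.05 in row G, and those of wells 1 to 12 from -2.38 in well 10 to -1.84 in well 1. Odd-numbered wells were at -2.08 against -2.22 for even-numbered ones.

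Plate TC29 carried a pair of stretches at the level of the median probe, set between low probes. The stretches are those members in unbroken name order that were not called below by more than 0.5, and they are described without a test because they were found in the values. The first, TC29A10 to TC29C06, held 21 probes with means of 0.17, -0.08, 0.11 and 0.08 in replicates I to IV, 0.07 ± 0.11 in all (SD, n = 4). Its probes were alike, with an SD of 0.33 over the 21, 18 of them within 0.5 of the median and a middle rank at the 49.6th percentile of the array. The step into it was abrupt in every replicate. TC29A09, the well before it, was at -1.91, -1.71, -1.98 and -1.59, and TC29A10 was at -0.43, -0.40, -0.07 and -0.25.

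The 9 probes that followed, TC29C07 to TC29D03, returned to -2.27 ± 0.19 (SD, n = 4), all of them below by more than 0.5, with the single lowest at -3.18. The second stretch then ran from TC29D04 to TC29E04, 13 probes at 0.08, -0.14, -0.07 and -0.00 in I to IV, a mean of -0.03 ± 0.09, with an SD of 0.27 over probes and all 13 within 0.5 of the median. Beyond it the plate was low again, less abruptly, with TC29E05 at -0.96 ± 0.09 and the 44 probes to the end of the plate at a mean of -1.90 ± 0.19. The 9 probes at the start of the plate were at -2.14 ± 0.21. The plate median of -1.40 thus describes neither the low probes of TC29 nor those near 0.

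Shorter interruptions varied in height. TC30B03 to TC30B08 held 6 probes at 0.58 ± 0.16 (SD, n = 4), with 0.70, 0.38, 0.72 and 0.52 in I to IV, and TC22C10 to TC22D01 held 4 at 0.54 ± 0.07, with 0.59, 0.47, 0.62 and 0.49. TC25B04 to TC25B07 held 4 at 0.49 ± 0.10, running from 1.22 down to -0.31. These stretches had means above the median in every replicate, while the means of the second stretch on TC29 lay on either side of it. The 11 interruptions of 2 probes ran from -0.47 (TC19G01 and TC19G02) to 1.18 (TC25F01 and TC25F02). Most interruptions were a single probe, 38 of 54, from -0.72 to 1.63, and 26 of the 38 were under 0.

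The 994 members below by more than 0.5, 90.2% of the series, formed 76 runs of consecutive names with a mean length of 13.1 probes. So large a share gives long runs in any order. Single probes made up 22 of the runs, and 933 of the probes (93.9%) belonged to a run of at least 5. The longest had 94 probes, from TC27A04 across the plate border to TC28A01, at a mean of -2.33 ± 0.12 (SD, n = 4), with single probes from -3.60 to -0.80. TC20F10 to TC21F03 had 90 probes at -2.25 ± 0.15, and TC19H01 to TC20F08 had 80 at -2.45 ± 0.20. The single well between these runs, TC20F09, was at -0.46, the highest ratio of its plate.

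Neighbouring wells were alike within the series, as they were in other sets of plates. Across 1069 pairs of members 1 well apart, the Pearson correlation of the mean ratio was 0.53 (0.48 to 0.53 in single replicates). It fell to 0.43 at 2 wells, 0.30 at 5, 0.19 at 10 and 0.11 at 20. At 1 well it was 0.51 on plates TA37 to TA51, 0.64 on TA21 to TA30, 0.57 on TC00 to TC13 and 0.59 on the TB plates. These are descriptions, since the probes share arrays and do not replicate each other. The likeness differed along the series: at 1 well it was 0.40 on TC17 to TC25 and 0.71 on TC27 to TC30, the part that holds the TC29 stretches.

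The 14 members above the median by more than 0.5 were moderate in height, some alone among low wells and some in high company. Their means ran from 0.76 to 1.63, from the 71.8th to the 94.5th percentile of the array, and 1168 probes of the array (5.48%) exceeded the highest of them. They lay on 7 of the 13 plates, with 6 on TC25 alone. Of the 26 neighbouring wells that held a member, 9 (34.6%) were below by more than 0.5, against 90.2% of members, 13 passed in neither direction and 4 (15.4%) were above, against 1.27%, the 4 being 2 adjacent pairs seen from each side. The calls depend on where 0 is placed: with the values as deposited, or centred on the mode, only TC25A06 and TC25B01 remained above by more than 0.5. The highest members not called, such as TC22D01 at 0.66, lay close under the lowest called.

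TC25A06 was the highest member, at 1.29, 1.86, 1.58 and 1.78 in replicates I to IV, a mean of 1.63 ± 0.25 (SD; limma's treat, adjusted p = 6.3e-05). It stood alone: TC25A05 before it was at -3.67, among the 10 lowest members, and TC25A07 after it was at -3.04. TC17E10 was the only other of the 14 between wells called below on each side, at -1.41 and -1.76. Its replicates were the least alike of the 14, at 0.97, 1.98, 0.73 and 1.24, a mean of 1.23 ± 0.54 (adjusted p = 0.0079).

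The other high probes of TC25 were in rows B and F. TC25B01 had 1.59, 1.58, 1.20 and 1.39, a mean of 1.44 ± 0.18 (treat, adjusted p = 6.9e-05), beside TC25B02 at -1.72. TC25B04, at 1.40, 1.13, 1.28 and 1.06, and TC25B05, at 1.19, 0.48, 1.15 and 0.56, were adjacent, and in each the values of I and III exceeded those of II and IV. With a mean of 0.85 ± 0.38, TC25B05 passed only narrowly (adjusted p = 0.044), whereas TC25B04 passed at 1.9e-04. The call on TC25B05 was lost with I joined to III and II to IV in random blocks (adjusted p = 0.069) and without replicate I or III (adjusted p = 0.15 for each). TC25F01 was the steadiest of the plate, at 1.28, 1.33, 1.31 and 1.24 (1.29 ± 0.04, adjusted p = 5e-05). TC25F02 beside it had 1.17, 0.90, 1.33 and 0.89, and the next well, TC25F03, was at -1.87. Plate TC25 accordingly had the widest spread over probes, an SD of 1.46 against 0.52 on TC21, the narrowest, although its median was as low as that of TC21.

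The remaining 7 high members were on plates TC18, TC22, TC28, TC29 and TC30. TC30B04 had 1.45, 0.94, 1.32 and 1.05, and TC30B07 had 1.19, 1.20, 1.11 and 1.09, both within the stretch of TC30 described above. TC18H05 had 1.03, 1.19, 1.10 and 0.93, before a well at -1.58. TC28A03 was the steadiest of the 14, at 0.86, 0.83, 0.83 and 0.81 (0.83 ± 0.02, treat adjusted p = 0.0036), and was followed by TC28A04 at -1.30. The other 3 were TC29B11 at 0.86 ± 0.24 and TC29A11 at 0.76 ± 0.14, which belong to the first stretch on TC29, and TC22C11 at 0.78 ± 0.05, between wells at 0.30 and 0.44. With I joined to III and II to IV in blocks, these 3 no longer passed, at adjusted p = 0.10, 0.13 and 0.074 in the order named. TC29B11 was also lost without III (0.053) or IV (0.051), and TC29A11 without I (0.062) or IV (0.082). Each of the 14 was above the replicate median in all 4 replicates.

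**Figure D3:**
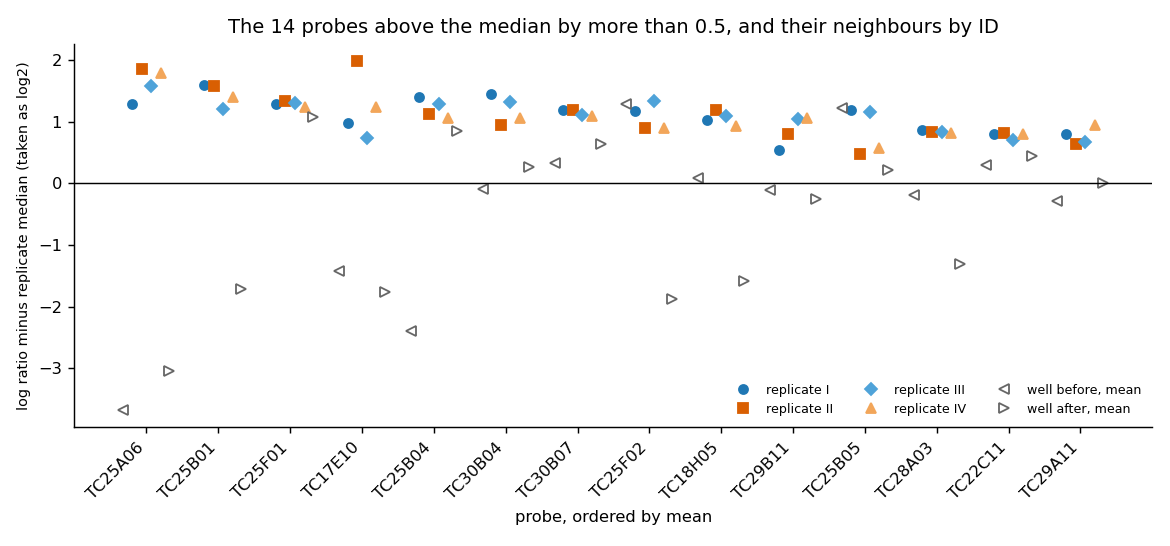
The 14 probes above the median by more than 0.5, ordered by mean, with their value in each of 4 replicates (filled symbols) and the mean of the wells named directly before and after (open triangles, drawn where that well holds a member); the vertical axis is the log ratio minus the replicate median, taken as log2. The replicates of each probe lie above 0, while neighbours range from -3.67 to 1.29.

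At the other end, the 5 lowest members were TC24D02, TC19C02, TC19C06, TC24B04 and TC22B02. TC24D02 had -4.78, -4.13, -4.78 and -4.15 in I to IV, a mean of -4.46 ± 0.37 (SD; limma adjusted p = 6.1e-07), and 2 probes of the whole array were lower. TC24B04 was steadier, at -4.03, -4.07, -4.02 and -3.96. The others were at -4.33 ± 0.26, -4.09 ± 0.31 and -3.94 ± 0.19 in the order named. Unlike most of the high members, each of these stood between wells that were also below by more than 0.5, from -2.29 to -3.49. With 90.2% of all members below by that much, such neighbours are common in the series.

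The replicates were alike in pairs. Over the 1102 members, I correlated with III at 0.95 and II with IV at 0.94 (Pearson), whereas the 4 remaining pairs gave 0.89 to 0.91. The same pairing was found over all probes of the array. There I with III and II with IV each gave 0.99, and the 4 remaining pairs 0.94 to 0.95. The replicate pairs follow no label: the titles of I and II share a set of numbers, as do those of III and IV, so the likeness crosses these sets, and each set held 1 of the lower and 1 of the higher medians of the series. With these sets as random blocks, 1001 members lay below by more than 0.5 and 18 above. The correlation limma estimated within these sets was -0.75, against 0.73 within I with III and II with IV. A negative value makes the errors smaller, so the fit with title sets is not a stricter test. Because the pairs follow no label, the difference between them is described without a test. The mean of II and IV minus the mean of I and III had a median of 0.23 over members, and both II and IV exceeded both I and III in 631 members, 57.3%, against 39.1% of all probes. The reverse order held for 164 members, 14.9%, against 34.1% of all probes. These shares are not particular to the series. On the low plates TA37 to TA51 they were 55.7% and 16.0%, and on TA21 to TA30 46.9% and 30.0%. On TC00 to TC13 they were 25.2% and 46.4%, and on the TB plates 36.0% and 38.0%. With the values as deposited, II and IV exceeded I and III in 90.7% of members and 77.1% of all probes, and after quantile normalization in 40.5% and 35.0%. The plate medians showed the same order on 13 of 13 plates, from a median difference of 0.14 on TC29 to 0.36 on TC28.

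With each replicate centred on its median, this difference varied with the level of the probe. Centring takes 1 constant from each replicate, so it moves the difference equally at every probe. It therefore sets where the difference is 0 but not how it varies with level. The SD of the difference over members was 0.39 with centring and 0.39 as deposited. Among the 503 members with a mean between -3 and -2, medians were -2.62, -2.33, -2.59 and -2.37 in I to IV, and the median difference was 0.28. It was 0.27 for the 125 members under -3 and 0.26 for the 330 between -2 and -1. Among the 92 members between -1 and 0 it was 0.02, and among the 52 above 0 it was -0.05. The plates TA37 to TA51 gave 0.21, 0.23 and 0.19 in the 3 lower classes, 0.15 between -1 and 0 and -0.08 above. Plates TA21 to TA30 gave -0.00 under -3, then 0.17, 0.16 and 0.18, and -0.10 above 0. The size depends on the scaling: the median over members was 0.68 with the values as deposited and 0.08 after quantile normalization.

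**Figure D4:**
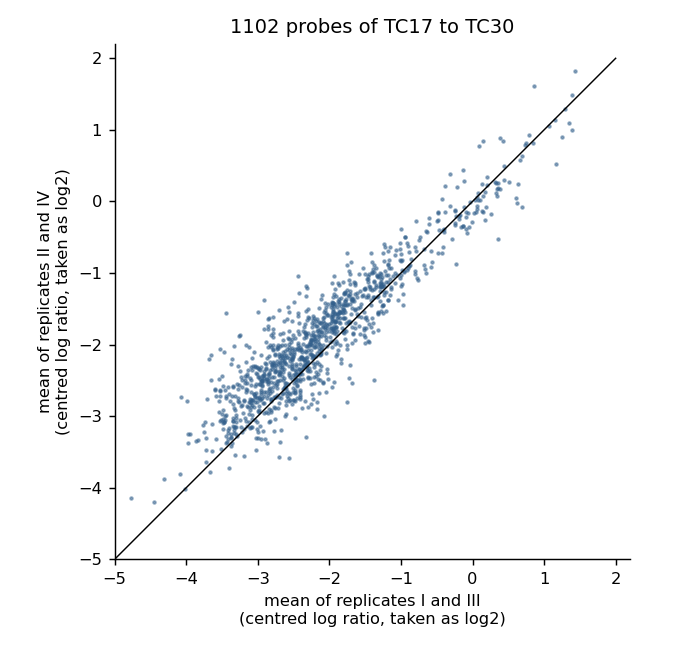
Each point is 1 of the 1102 members, with the mean of replicates I and III on the horizontal axis and that of II and IV on the vertical axis, as log ratios centred on the replicate median (taken as log2); the line marks equal values. Below -1 the cloud lies mostly above the line, with a median difference of 0.26 to 0.28, and near 0 it lies close to the line.

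A few members varied widely between replicates. The SD between replicates exceeded 1 in 15 members, and the replicate farthest from the others was the lower one in 14 of them. Replicate III was the far one 5 times, I and IV each 4 times and II 2 times, and 6 of the 15 were on plate TC21. The least steady was TC21A12, at -2.39, -0.87, -1.13 and -4.74. Of the 3 members most raised in II and IV, TC19D02 (-4.89, -1.47, -1.99 and -1.64) and TC28C07 (-1.80, -1.50, -4.04 and -1.26) each had a single value far under the other 3, while in TC19A03 (-3.42, -2.35, -3.90 and -1.95) both I and III were more than 1 under II and IV. Of the 3 most lowered, TC23F04 (-1.24, -2.55, -1.52 and -2.44) had both II and IV under I and III, while TC21A12 and TC21G04 (-2.57, -4.62, -2.54 and -2.56) did not. All 15 were nevertheless below by more than 0.5 in limma's treat.

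The level of the series was set beside that of 4 other sets of plates, with the difference of medians taken within each replicate. Exact two-sided sign-flip tests on 4 replicates cannot give a p under 0.13, and each of the 4 comparisons gave that value (0.13 after adjustment over the 4). Plates TA37 to TA51 and TA21 to TA30 were picked as low stretches of these same values. A level near that of the series is thus partly given by that choice, and their p-values do not test it. The closest set was TA37 to TA51, the longest low stretch of the TA plates, with 1342 probes. The members were lower by 0.02, 0.00, 0.05 and 0.08 in I to IV, a difference of -0.04 ± 0.03 (SD, n = 4) that was negative in all 4. With means over probes in place of medians the difference was -0.03. Replicate II then had the other sign, at -1.875 for the members against -1.888. The shapes were also near each other, with 89.0% of the TA37 to TA51 probes below by more than 0.5 and 1.12% above, and a spread over probes of 0.98 in both. With 4 replicates the test could not separate these levels at 0.05, whatever their size.

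TA21 to TA30, the other long low stretch, had a median close to that of the series but a wider spread. The members were lower by 0.21, 0.08, 0.16 and 0.14, a difference of -0.15 ± 0.05 in the same direction in 4 of 4 replicates. The SD over the 823 probes was 1.40, 77.2% were below by more than 0.5 and 6.68% above. By contrast, the members differed by -2.56 ± 0.24 from plates TC00 to TC13, which share the TC name, and by -2.60 ± 0.17 from the TB plates, several times the spread between replicates and in 4 of 4 replicates. The probes named last before the gap in plate numbers and first after it did not show this difference. Whether they are neighbours on the chromosome is not known. The last 3 probes of TC13, TC13C08 to TC13C10, were at -1.88, -1.43 and -0.67, and the first 3 members, TC17D01 to TC17D03, at -1.89, -0.19 and -0.20, while TC13 as a whole had a median of 0.09 ± 0.22.

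**Figure D5:**
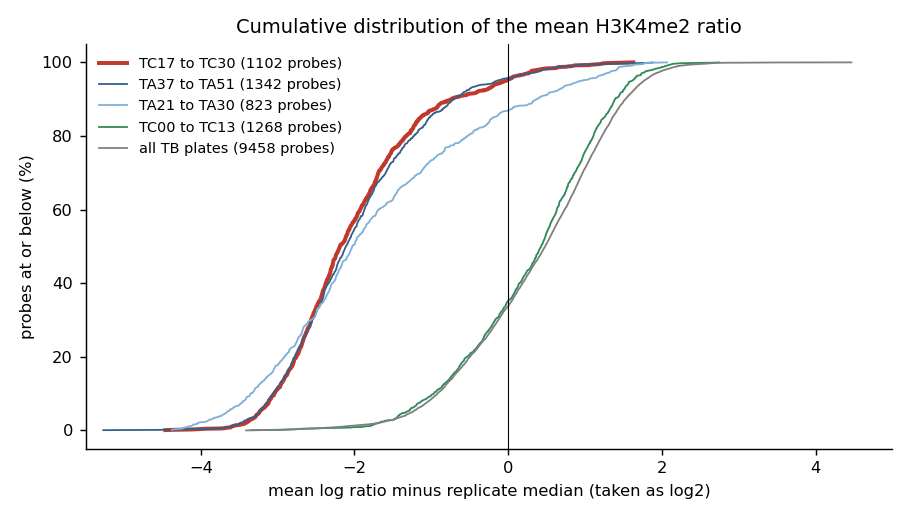
Percentage of probes at or below each mean ratio (log ratio minus replicate median, taken as log2) for TC17 to TC30 and 4 other sets of plates. The curve of TC17 to TC30 runs beside that of TA37 to TA51, that of TA21 to TA30 is wider, and those of TC00 to TC13 and the TB plates lie about 2.6 to the right.

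Names without a value were concentrated on 1 plate. Of the 1133 names, 31 (2.74%) lacked a value in at least 1 column, against 2.14% of all plate and well names on the array. Such names are called without a value here. Plate TC25 held 19 of the 31. There, 18 of the 20 even-numbered wells of rows A, C, E and G had no value, and 1 of the odd-numbered wells, while all 36 wells of rows B, D and F had one. TC25 is also the plate with 6 of the 14 high members, and TC25A06 is 1 of the even-numbered wells of those rows that kept a value. Whether these belong together was not tested. The last members named on the plate, TC25G01, TC25G03 and TC25G05, were at 0.37, 0.30 and 0.23, with the wells between them without a value.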

How the data were processed

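The only file was a table of processed values with 21800 names and 8 columns. The deposited values are log ratios of the IP and input channels, taken here as log2; for background correction, normalization, log base and direction the sources used here give nothing, and scanner signals were not used here, so signal over background is unknown. The authors' columns of a dye pair were identical and were averaged to 1 replicate (n = 4). Each replicate was centred on its median over 21295 valued probes, without loess or quantile normalization. All probes were fitted with limma 3.58.1 in R 4.3.3 (lmFit, eBayes, and treat at 0.5, threshold 0.05), and the fit was tested on simulated data. Level differences used exact sign flips. Python 3.11.15, numpy 2.4.6 and pandas 2.3.3 did the rest. Alternatives were other centrings, quantile normalization, random blocks, other thresholds and leaving out replicates.

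Members and lists were chosen with earlier results of these data known. Named probes were all members above by more than 0.5 with their neighbours, the 5 lowest with 1 sign throughout, the 3 largest differences of each sign between II with IV and I with III, and the longest low run. Other probes named in the report were chosen after their values were seen. The number of arrays limits the precision.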

Additional observations from a re-analysis of the deposited data

Results flagged for a closer look

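In 2 of 49 results examined, 1 of the 4 replicates lay far from the other 3. Chance marks about 1 result in 20 in this way when results are not picked by their values. Both were named for large differences between II with IV and I with III, which a single far replicate can produce. That rate therefore does not apply to them. In TC19D02 the far replicate was I, at -4.89 against -1.99 to -1.47. In TC21G04 it was replicate II, at -4.62 against -2.57 to -2.54.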

How the results depend on the processing

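The counts of members below the median changed little: 1010 to 1077 in place of 1026 over the centrings, quantile normalization, blocks, replicates left out and an adjusted p of 0.01, and 972 to 1036 in place of 994 with a distance over 0.5 (890 over 1). Counts above depend on where 0 is placed. Without centring, 9 members were above in place of 32, and 2 in place of 14 with a distance over 0.5; centred on the mode these were 9 and 2. Over a distance of 1, 3 were above. Without plates TC25, TC29 and TC30, chosen after seeing the data, 9 and 4 were above. With 1 replicate left out they were 25 to 31 and 12 to 14. The series median was -2.64 without centring, -2.76 centred on the mode and -1.82 on TC27 to TC30 alone. The difference of II and IV from I and III was 0.68 without centring and 0.078 after quantile normalization. The correlation of neighbours was 0.40 on TC17 to TC25, 0.71 on TC27 to TC30, 0.45 by Spearman and 0.45 with plate medians removed. The differences from other sets of plates, averaged over replicates, kept their sign, which centring cannot change. With means over probes, replicate II alone had the other sign against TA37 to TA51. The 14 high members stayed above by more than 0.5 in 104 of 140 cases and turned below in 0; the 5 lowest passed in 50 of 50, and were chosen as extremes. Apart from fewer probes or a moved 0, the cause was not tested.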
